A study of Homo sapiens with 30 samples.

Results

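Expression of a lentiviral miR-1 hairpin was compared with its empty vector in Molm-14 cells, by RNA sequencing of 3 overexpression libraries (OE) and 3 empty vector libraries (EV). These are 6 of the 30 libraries of a study of miR-1 and of the mitochondrial pyruvate carrier in human acute myeloid leukemia (AML) cell lines. They were chosen by cell line and vector as the labels give them, and every gene with enough counts in them was kept, which left 15714 of 60675 annotated genes. Molm-14 is a monocytic AML line that carries an internal tandem duplication in the receptor gene FLT3. OE cells had been transduced with a lentiviral vector that has the EF1α promoter, GFP and a segment around MIR1-2, and EV cells with a lentiviral vector that carries GFP alone, so that both groups had been infected and both made GFP. The study asked how a high level of miR-1 changes AML cells. The sources do not say whether the 3 replicates of a group were separate infections or separate cultures of 1 infected population, and p-values measure only the spread between these libraries.

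miR-1 is a microRNA best known from heart and skeletal muscle, where it is abundant and its targets include regulators of growth and of the cytoskeleton. A microRNA is loaded into an Argonaute protein and guides it to messages whose 3′ UTR pairs with the seed, bases 2 to 8 of the microRNA, which lowers their stability and translation. The strongest kind of site, the 8mer, pairs with the whole seed and has an A opposite the first base. The mature miR-1-3p, from RefSeq on GRCh38.p14, is made from 2 hairpin genes, MIR1-2 (mature strand at chr18:21829015-21829036, minus strand) and MIR1-1 (chr20:62554351-62554372, plus strand). It is shown with the seed in capitals.
hsa-miR-1-3p: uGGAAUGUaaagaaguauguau

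The vector insert was seen only in OE. MIR133A1HG (ENSG00000265142, chr18:21825487-21831539, minus strand), the transcript that hosts MIR1-2 and lies inside an intron of MIB1 on the opposite strand, had 60, 44 and 34 counts in OE 1, OE 2 and OE 3 and 0 in the 3 EV libraries. Scaled to the total counts of each library, the OE libraries stood at 2.53 ± 0.339 CPM (SD, n = 3). This is at least 14.1-fold above the floor of 3 counts per EV library (edgeR FDR 1.61e-12). The marker sums below were scaled in the same way, and other CPM are counts scaled to the effective library size. MIB1 itself, a ubiquitin ligase of the Notch pathway, had 167, 169.6 and 163 CPM in OE and 165, 165 and 168 CPM in EV and was not called (log2 fold change 0.0067, SE 0.035, edgeR FDR 0.973). The hairpin genes MIR1-1 and MIR1-2 had 0 counts in all 6 libraries, and the mature microRNA was not measured in these libraries.

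Each library held 15543301 to 20939985 counts. Markers of myeloid cells were present. Of 12 myeloid markers all 12 passed the filter, summing to 1506 to 1529.8 CPM in OE and 1444 to 1450.2 CPM in EV, while the muscle list summed to at most 0.382 CPM in OE and 0.406 CPM in EV, with MYH2, MYH7, MYL2, MYOD1, MYOG and TNNT2 at 0. The list of fibroblast, epithelial and kidney markers summed to 31.2 to 34.4 CPM in OE and 27.5 to 30.6 CPM in EV, nearly all of it KRT18 and KRT8, with DCN and KRT19 at 0. B and plasma cell markers summed to 104 to 109.6 CPM in OE and 104 to 119 CPM in EV, nearly all of it PAX5, with JCHAIN at 0. The first principal component of 10652 genes held 31.0% of the variance and separated the groups, with OE libraries at 1.72, 3.47 and 9.44 and EV libraries between -5.73 and -4.21. The share of counts on mitochondrial genes was 3.50% to 3.76% in OE and 2.89% to 3.20% in EV.

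The changes were small and numerous. With the 6 libraries fitted alone, 195 of 15714 genes passed an FDR of 5% in the edgeR quasi-likelihood test (1.24%), 154 higher in OE (0.98%) and 41 lower (0.261%). These are the genes called in the rest of the text. Of the 195, 132 changed by less than 0.25 on the log2 scale and 16 by more than 0.5. The CPM of OE and EV did not overlap for 185 of them, against 15.6% of all tested genes. Over all tested genes the median log2 fold change was 5.29e-04 and 50.2% were positive. An unadjusted edgeR p under 0.05 was reached by 1700 of the 15714 genes, 959 of them higher. Replicates of these groups were close, with a common biological coefficient of variation of 3.89%, against 11.7% in the MV4-11 libraries of the same series.

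Far fewer genes passed with a wider estimate of the spread. In the fit of all 12 libraries of the series, in which Molm-14 and MV4-11 share 1 estimate of the spread, 1 of 17542 genes was called (0.0057%), MIR133A1HG, and 768 had an unadjusted p under 0.05. The count was 3 without MV4-11 OE 1 or EV 2 and 2 without MV4-11 OE 2, OE 3 or EV 3. That fit contrasts the same 6 Molm-14 libraries, so the direction of a gene was all but fixed in advance. All of the 195 genes kept it, and 112 had an unadjusted edgeR p under 0.05 there. In the 6 libraries 77 genes were called without OE 1, 109 without OE 2, 114 without OE 3, 88 without EV 1, 207 without EV 2 and 142 without EV 3, and 37 of the 195 were called in each of these 6 fits. DESeq2 called 100 genes, 93 of them among the 195.

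**Figure D1:**
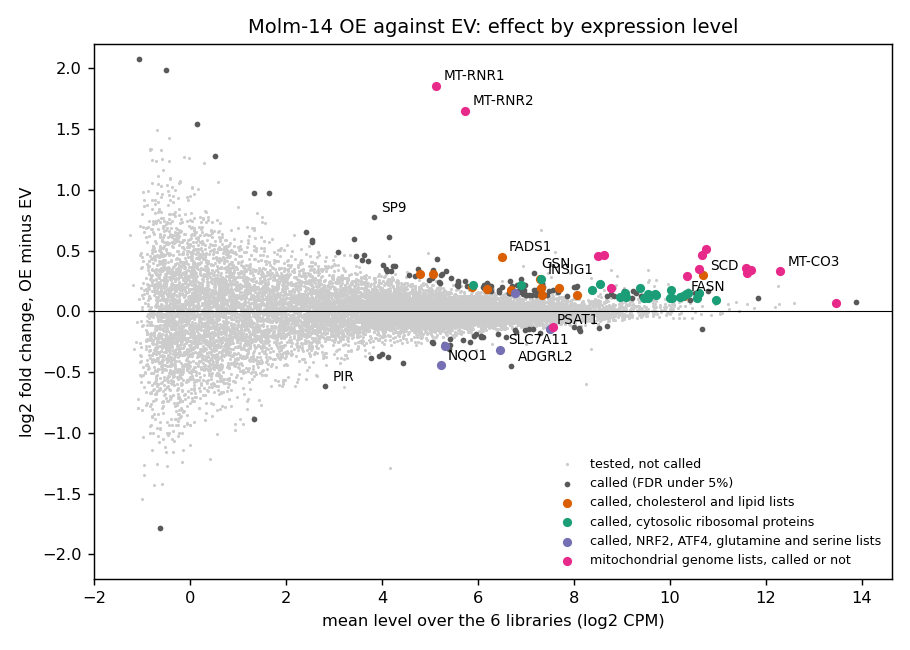
Each point is 1 gene of the 6-library comparison, with its mean level in log2 CPM on the horizontal axis and its log2 fold change (OE minus EV) on the vertical axis; grey points were not called, dark and coloured points mark called genes and the mitochondrial genome lists. Called lipid genes and ribosomal proteins lie above 0, NQO1 and SLC7A11 below, and both mitochondrial rRNA genes far above without being called; MIR133A1HG and 1 uncalled small RNA gene lie outside the frame.

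Genes with a seed match lay close to genes without one. Of the 15714 tested genes, 11761 had an annotated 3′ UTR (GENCODE 44, canonical transcript), and 628 of those held an 8mer, the sequence ACATTCCA. Their median log2 fold change was -0.0040, against 0.0039 in 9173 genes without a site and 0.0029 in all genes with a 3′ UTR. The 919 genes whose best site was a 7mer-m8 (seed match without the A) stood at -0.0046 and the 1041 with a 7mer-A1 (shorter match with the A) at 0.0033. Of the 628 genes with an 8mer, 4 were called higher and 2 lower, 0.955%, beside 1.505% of all genes with a 3′ UTR. The 588 genes with 2 or more sites of any type had a median of -0.0098, and 56.3% of them were negative, beside 48.5% of all genes with a 3′ UTR.

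The cumulative curves of the site types ran almost on each other. Genes with a site had a lower GC content than genes without, with medians of 43.96% for the 8mer and 49.7% for no site, and fold changes rose with GC content across genes (Spearman 0.156 over 15662 genes, which are not independent). With offsets for GC content and length the median of the 8mer genes was 0.0021 and that of genes without a site -0.0013. Among called genes with a 3′ UTR, 8 of 32 lower genes held an 8mer or 7mer-m8 and 11 of 145 higher genes (7.59%), against 13.2% of all. The 3′ UTRs of the lower genes were longer, with a median of 1927 bases against 698 in the higher genes and 1312 in all.

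**Figure D2:**
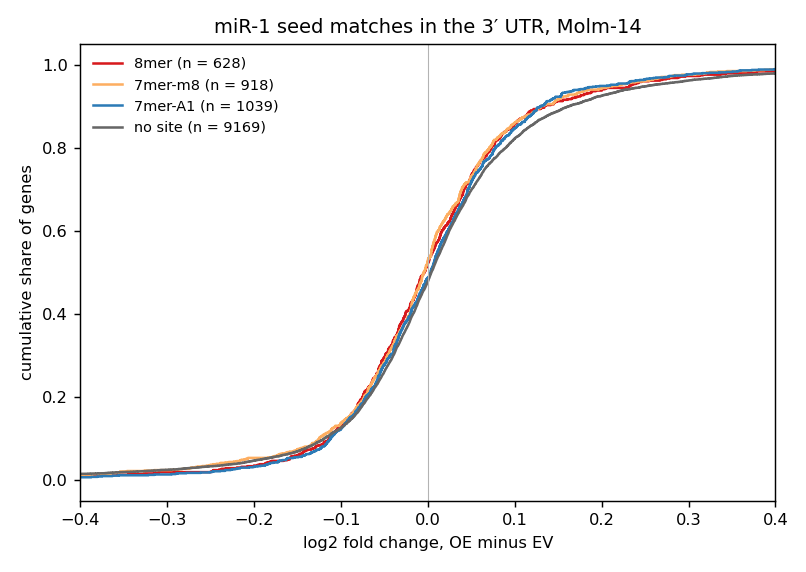
Cumulative share of genes (vertical axis) by log2 fold change, OE minus EV (horizontal axis), for the 628, 919 and 1041 genes whose 3′ UTR holds an 8mer, a 7mer-m8 or a 7mer-A1 match to the miR-1 seed and the 9173 genes without one. The 4 curves run nearly on each other, with medians between -0.0046 and 0.0039.

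Of the 6 called genes with an 8mer, SLC7A11 and TNPO1 fell and GAS7, CEP250, GABRA4 and AXL rose. Their sites are printed 5′ to 3′ on the message strand, from GRCh38, with the 8 paired bases in capitals.
SLC7A11, chr4:138164570-138164599, minus strand: tttctgcatccACATTCCAatcatattaga
TNPO1, chr5:72911644-72911673, plus strand: ttgtctttgttACATTCCAgtgtttctgcc
GAS7, chr17:9916006-9916035, minus strand: gctccttctggACATTCCAgagccctgcac
CEP250, chr20:35516372-35516401, plus strand: cgtatctatgaACATTCCAgccctgcaggt
GABRA4, chr4:46922054-46922083, minus strand: tctttacctctACATTCCActattcggaag
AXL, chr19:41260144-41260173, plus strand: cccaggtgttaACATTCCAagactctagag

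SLC7A11 (ENSG00000151012, chr4:138164097-138242349, minus strand), the cystine importer that supplies glutathione synthesis, had 76.7, 74.3 and 85.9 CPM in OE and 94.0, 104 and 96.5 CPM in EV. All 3 OE libraries lay below the EV libraries (log2 fold change -0.31, SE 0.047, edgeR FDR 1.29e-05), and the call held without any 1 library. Its site lies at base 7368 of a 3′ UTR of 7859 bases. TNPO1, which imports proteins into the nucleus, had 389, 397 and 395 CPM in OE and 428, 422 and 433 CPM in EV, again without overlap (log2 fold change -0.12, SE 0.03, edgeR FDR 0.0218). That call was lost without OE 1, OE 2, EV 1 or EV 3 (edgeR FDR 0.0631 to 0.187).

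The other called genes with an 8mer were higher in OE. AXL, a receptor tyrosine kinase, had 14.2, 11.9 and 12.3 CPM in OE and 9.57, 10.2 and 8.28 CPM in EV (log2 fold change 0.46, SE 0.11, edgeR FDR 0.0209). GABRA4, a subunit of the GABA receptor, had 76.7, 79.1 and 81.1 CPM in OE and 71.5, 63.0 and 66.7 CPM in EV (log2 fold change 0.23, SE 0.048, edgeR FDR 0.00307). CEP250, which links centrosomes, rose by 0.20 (edgeR FDR 0.0109) and GAS7, a cytoskeletal adaptor, by 0.17 (edgeR FDR 0.0498). Groups did not overlap for any of the 4, which held for 185 of all 195 called genes. The calls of AXL and CEP250 held in 3 of the 6 fits that leave out 1 library, that of GAS7 in 1 and that of GABRA4 in 6.

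The lowest log2 fold changes among genes with an 8mer and at least 100 counts were those of ARHGAP11B, SLC7A11, ALG14, CORO2A and SLC2A13, and of these SLC7A11 alone was called. ARHGAP11B (-0.34, SE 0.12, edgeR FDR 0.168), ALG14 (-0.31, SE 0.12, edgeR FDR 0.282), CORO2A (-0.25, SE 0.15, edgeR FDR 0.596) and SLC2A13, an inositol transporter (-0.25, SE 0.081, edgeR FDR 0.127), did not pass. Targets of miR-1 known from other tissues went both ways. Of 27 such genes tested, 14 were positive, with a median of 0.0088. An unadjusted edgeR p under 0.05 was reached by 4 lower genes and 2 higher. Over all 15714 tested genes 1700 reached it, 959 of them higher, and 0.98% were called higher and 0.261% lower. FOXP1, a transcription factor, fell (-0.15, SE 0.037, edgeR FDR 0.0177) and PTMA, the small nuclear protein prothymosin, rose (0.17, SE 0.038, edgeR FDR 0.0435), and both were called in 2 of the 6 fits that leave out 1 library. TWF1, an actin-binding protein that is a classical target in muscle, had 40.5, 35.9 and 40.4 CPM in OE and 43.3, 43.7 and 43.4 CPM in EV and was not called (log2 fold change -0.16, SE 0.061, edgeR FDR 0.247). None of 16 proteins that make or carry microRNAs was called by edgeR, DESeq2 or voom, and 1 of them had an unadjusted p under 0.05.

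Genes of cholesterol and fatty acid synthesis were higher where they were called. Of 48 tested genes for cholesterol synthesis, sterol uptake and regulation, and fatty acid synthesis, 13 were higher, none was lower and 38 were positive, with a median of 0.087. The 13 rose by 0.13 to 0.45 on the log2 scale. The groups did not overlap for any of them, which held for 185 of all 195 called genes. Of the 48 tested genes 25 did not overlap, beside 15.6% of all tested genes. Over all tested genes 0.98% were called higher and 0.261% lower.

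Most of these genes are driven by the sterol regulatory element-binding proteins (SREBPs). When a cell is short of sterol, SCAP carries an SREBP from the endoplasmic reticulum to the Golgi, where it is cut and set free to enter the nucleus. INSIG proteins hold the complex back when sterol is plentiful.

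SCD and FADS1, both desaturases, had the lowest FDR of the list. SCD (ENSG00000099194, chr10:100347233-100364826, plus strand), which makes monounsaturated fatty acids, had 1753, 1885 and 1793 CPM in OE and 1522, 1433 and 1461 CPM in EV. Every OE library exceeded every EV library (log2 fold change 0.30, SE 0.027, edgeR FDR 1.03e-12). FADS1 (ENSG00000149485, chr11:61799627-61829318, minus strand), the desaturase of polyunsaturated fatty acids, had 99.8, 114 and 97.8 CPM in OE and 78.8, 73.3 and 76.1 CPM in EV, also without overlap (log2 fold change 0.45, SE 0.047, edgeR FDR 1.01e-09). FADS2, its neighbour on the opposite strand, was examined after its values were seen and stood at 194 ± 16.8 CPM in OE and 122 ± 14.7 CPM in EV (SD, n = 3). The libraries did not overlap (log2 fold change 0.67, SE 0.12, edgeR FDR 0.149), and the gene was called by DESeq2 (FDR 5.60e-05), by limma voom (FDR 2.89e-09) and by edgeR without robust estimation (FDR 5.67e-10). FASN (ENSG00000169710, chr17:82078338-82098294, minus strand), the synthase that builds palmitate, had 1318, 1309 and 1277 CPM in OE and 1192, 1189 and 1198 CPM in EV (log2 fold change 0.13, SE 0.026, edgeR FDR 0.00379). FASN lost its call without OE 1 (edgeR FDR 0.072), while SCD and FADS1 kept theirs without any 1 library.

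OLMALINC (ENSG00000235823, chr10:100373099-100454043, plus strand), a non-coding RNA that starts just downstream of SCD on the same strand, rose with it. It had 41.9, 42.6 and 37.9 CPM in OE and 31.2, 30.2 and 29.7 CPM in EV, and the OE libraries lay well above the EV libraries (log2 fold change 0.43, SE 0.066, edgeR FDR 1.89e-05).

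Regulators of the sterol pathway were also higher. INSIG1 (ENSG00000186480, chr7:155297776-155310235, plus strand), whose protein restrains SREBP release, had 164, 179 and 172 CPM in OE and 148, 139.6 and 141 CPM in EV. The lowest OE library was above the highest EV library (log2 fold change 0.26, SE 0.037, edgeR FDR 2.17e-06). SREBF2 (ENSG00000198911, chr22:41833105-41907306, plus strand), which encodes the SREBP of the cholesterol genes, rose by 0.14 (edgeR FDR 0.0114) and STARD4, a sterol carrier of the cytosol, by 0.31 (edgeR FDR 0.0217). These 2 calls were lost for SREBF2 without OE 1, OE 2 or EV 2 (edgeR FDR 0.0663 to 0.115) and for STARD4 without OE 2, OE 3, EV 1 or EV 2 (edgeR FDR 0.0536 to 0.241). SREBF1 (0.06, SE 0.033, edgeR FDR 0.516), SCAP (-0.045, SE 0.041, edgeR FDR 0.771) and INSIG2 (-0.062, SE 0.11, edgeR FDR 0.904) were not called.

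In the cholesterol pathway 6 of 21 genes were higher, 19 were positive and the median was 0.14. Called genes spread along the route from acetoacetyl-CoA to cholesterol. ACAT2 makes acetoacetyl-CoA, MVK phosphorylates mevalonate, FDPS makes farnesyl pyrophosphate, FDFT1 joins it to squalene, LSS closes the ring to lanosterol and DHCR7 takes the last step. FDPS (ENSG00000160752, chr1:155308748-155320666, plus strand) had 169.9, 165 and 171 CPM in OE and 154, 150.0 and 138 CPM in EV (log2 fold change 0.19, SE 0.037, edgeR FDR 9.23e-04) and kept its call without any 1 library. MVK had 35.9, 39.7 and 35.8 CPM in OE and 30.5, 31.2 and 28.2 CPM in EV (log2 fold change 0.31, SE 0.068, edgeR FDR 0.00712), and this call was lost without OE 2 or EV 3 (edgeR FDR 0.0781 to 0.0941). The remaining calls were ACAT2 at 0.18, SE 0.047, edgeR FDR 0.0299, FDFT1 at 0.14, SE 0.036, edgeR FDR 0.0346, LSS at 0.18, SE 0.041, edgeR FDR 0.0109 and DHCR7 at 0.20, SE 0.053, edgeR FDR 0.0323. HMGCS1, which makes HMG-CoA, just missed the threshold (log2 fold change 0.16, SE 0.044, edgeR FDR 0.0516).

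These calls depended on the estimate of the spread and on single libraries. The 12-library fit tests the same Molm-14 libraries with a wider estimate of the spread. There the 13 genes kept their direction, with unadjusted edgeR p between 0.139 and 0.623. In MV4-11 their log2 fold changes ran from -0.16 to 0.063, with 10 of 13 negative. None differed between the lines in the interaction test (lowest edgeR FDR 0.988). Without OE 2, 6 genes of the 48 were called, and 8 without OE 1. Of the cholesterol genes 1 was called without OE 2 and 3 without OE 1, EV 1 or EV 3. FADS1, ACAT2 and MVK each overlap a gene on the opposite strand (FADS2, TCP1 and MMAB) with over 10% as many reads, and whether reads were counted by strand is not stated.

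Promoters of the lipid genes were read for the sterol element core CACCCCAC on both strands, from 250 bases before to 50 after the RefSeq start. Of the 13 called genes 9 had an entry in the promoter set, and 1 of the 9 held the core, that of SREBF2, against 2.72% of 27305 promoters. The stretch around it is shown with the core in capitals, which begins 132 bases before the start.
SREBF2, chr22:41832957-41832996, plus strand, GRCh38.p14: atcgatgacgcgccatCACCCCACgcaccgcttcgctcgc

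**Figure D3:**
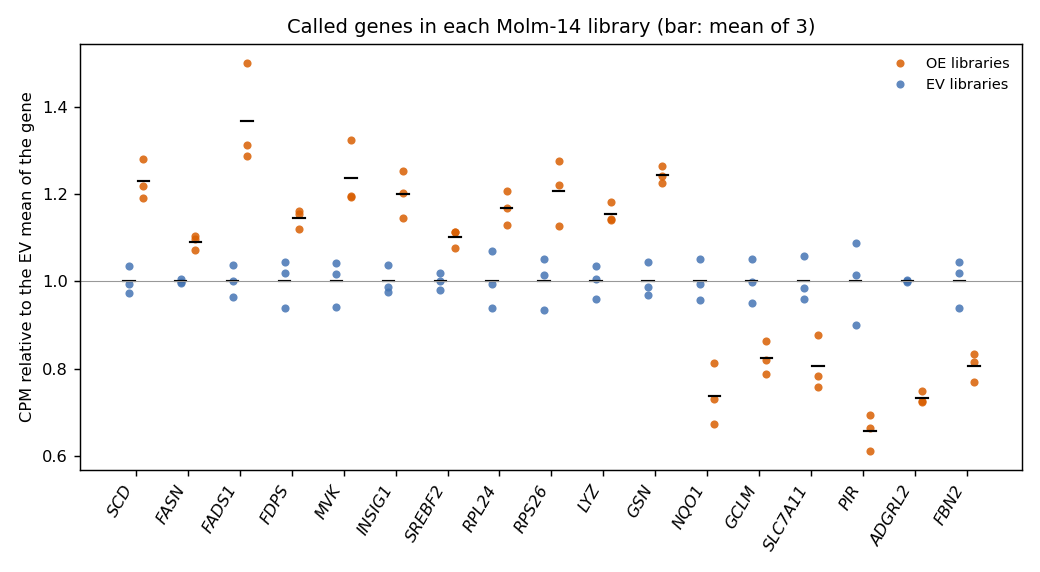
CPM of 17 called genes in each library divided by the EV mean of the gene (vertical axis); orange points are OE libraries, blue points EV libraries, and bars the mean of 3. For each gene shown the OE points lie on 1 side of the EV points, from SCD and FADS1 above 1 to NQO1, SLC7A11, PIR and ADGRL2 below it.

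Cytosolic ribosomal proteins made up the largest block of called genes. Of 79 tested, 24 were higher and none lower, 77 were positive and the median log2 fold change was 0.12, where 0.98% of all tested genes were called higher. These proteins make up the 2 subunits of the ribosome and their messages share a 5′ pyrimidine tract through which growth signals control their translation.

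Averaged over the list, log2 CPM came to 9.37, 9.37 and 9.42 in OE 1, 2 and 3 and 9.25, 9.33 and 9.18 in EV 1, 2 and 3. EV 2 lay closest to the OE libraries, at a distance of less than the range of the EV group. RPL24 (ENSG00000114391, chr3:101681091-101686733, minus strand), of the large subunit, had 399, 385 and 412 CPM in OE and 339, 365 and 320.2 CPM in EV (log2 fold change 0.22, SE 0.035, edgeR FDR 9.59e-05). RPS26 (ENSG00000197728, chr12:56041351-56044697, plus strand), of the small subunit, had 162, 175 and 183 CPM in OE and 146, 151 and 134 CPM in EV (log2 fold change 0.27, SE 0.042, edgeR FDR 2.26e-04). The groups did not overlap for either gene, and both kept their calls without any 1 library. RPL17 (0.22, SE 0.049, edgeR FDR 0.0288) and RPL36A (0.21, SE 0.058, edgeR FDR 0.0455) had the next largest called changes, and they were called in 2 and 1 of the 6 fits that leave out 1 library.

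Still larger differences among ribosomal proteins did not pass. RPL27, looked up after its values were seen, had 212, 221 and 251 CPM in OE and 167, 192 and 127 CPM in EV, without overlap but with a wide spread in EV (log2 fold change 0.49, SE 0.18, edgeR FDR 0.465). RPSA and RPS3A, at -0.019 and -0.014, were the only members below 0. The count of called members was 6 without EV 1, 10 without OE 1, 10 without OE 2, 12 without OE 3, 19 without EV 3 and 52 without EV 2, and 41 with limma voom. Ribosomal protein genes have many near-identical processed pseudogenes, so that the authors' counting could have split or lost reads.

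Other parts of the translation machinery moved less. Of 29 translation factors 3 were higher, where 0.98% of all tested genes were called higher. EEF1A1, which brings aminoacyl-tRNA to the ribosome, had 15117, 15294 and 15896 CPM in OE and 14774, 14777 and 14357 CPM in EV (log2 fold change 0.077, SE 0.02, edgeR FDR 0.0361), PABPC1, the poly(A)-binding protein, rose by 0.11 (edgeR FDR 0.00615) and NACA, a nascent chain chaperone, by 0.15 (edgeR FDR 0.025). No translation factor was called without OE 3 or EV 1, 1 was without OE 2 or EV 3, 2 were without OE 1 and 4 without EV 2. Of 30 ribosome biogenesis genes none was called by edgeR, DESeq2 or voom, and 4 had an unadjusted p under 0.05.

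Messages of the mitochondrial genome lay above EV in the OE libraries, with 1 call, and nuclear genes of the same complexes were not called. The mitochondrial genome encodes 13 subunits of the respiratory chain and 2 ribosomal RNAs, and its transcripts are made from both strands as long precursors, with MT-ND6 alone on the light strand. Of the 13 subunits 12 were positive, with a median of 0.34, and the 3 OE libraries did not overlap the EV libraries for any of the 13, where 15.6% of all tested genes did not overlap. MT-CO3 (ENSG00000198938, chrM:9207-9990, plus strand), of complex IV, was called, with 5588, 5387 and 5835 CPM in OE and 4531, 4637 and 4183 CPM in EV (log2 fold change 0.33, SE 0.042, edgeR FDR 0.00824). MT-ND5, with the largest log2 fold change, had 2042, 1841 and 2227 CPM in OE and 1556, 1587 and 1138 CPM in EV and was not called (log2 fold change 0.51, SE 0.17, edgeR FDR 0.411). MT-CO1 (0.071, SE 0.02, edgeR FDR 0.0558) had the smallest positive value, and MT-ND6 the 1 negative value, with 191, 190.0 and 161 CPM in OE and 196, 202 and 197 CPM in EV (log2 fold change -0.13, SE 0.053, edgeR FDR 0.359).

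The count of called subunits varied with the tool more than with the libraries, from 1 in the robust edgeR fit to 3 with DESeq2, 11 without robust estimation and 12 with limma voom. It was 0 without EV 1, 2 without OE 2 and 6 without EV 3. Mitochondrial ribosomal RNA, which the library kit depletes, differed in the same direction. MT-RNR1 had 49.3, 43.98 and 71.6 CPM in OE and 16.3, 8.35 and 20.6 CPM in EV and MT-RNR2 had 69.6, 63.5 and 109.8 CPM in OE and 26.7, 16.8 and 33.1 CPM in EV. In each OE library both were above every EV library, with values of 1.86, SE 0.39, edgeR FDR 0.21 and 1.65, SE 0.37, edgeR FDR 0.233. DESeq2 called both (FDR 0.00346 and 0.00279). The part of rRNA depletion or of RNA quality in the mitochondrial result was not tested.

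MTCO2P12 (ENSG00000229344, chr1:632757-633438, plus strand), a nuclear copy of MT-CO2, rose as well. It had 20.1, 19.4 and 24.7 CPM in OE and 14.6, 15.6 and 11.7 CPM in EV (log2 fold change 0.61, SE 0.1, edgeR FDR 9.18e-05), and its reads cannot be told apart with certainty from those of MT-CO2, which was not called (log2 fold change 0.34, SE 0.09, edgeR FDR 0.306).

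Of 79 nuclear genes for subunits of respiratory complexes I to V none was called by edgeR or DESeq2 and 1 by limma voom. Without EV 2 edgeR called 3 of them higher, and without OE 3 or EV 3 it called 1. An unadjusted edgeR p under 0.05 was reached by 15 higher and 2 lower genes. Over all 15714 tested genes 1700 reached it, 959 of them higher. The median of the 79 genes was 0.025, and 56 were positive, beside 50.2% of all tested genes. Averages over complex V did not overlap between the groups, and those over complexes I to IV did. The lowest was NDUFA9 of complex I (-0.18, SE 0.07, edgeR FDR 0.264) and the highest UQCRB of complex III (0.38, SE 0.16, edgeR FDR 0.517). None of 77 mitochondrial ribosomal proteins, 24 genes of the TCA cycle and pyruvate dehydrogenase, 23 glycolytic genes, 15 genes of fatty acid oxidation or 7 of the pentose phosphate pathway was called by edgeR, DESeq2 or limma voom. At an unadjusted p under 0.05 stood 10, 1, 2, 2 and 3 of them.

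**Figure D4:**
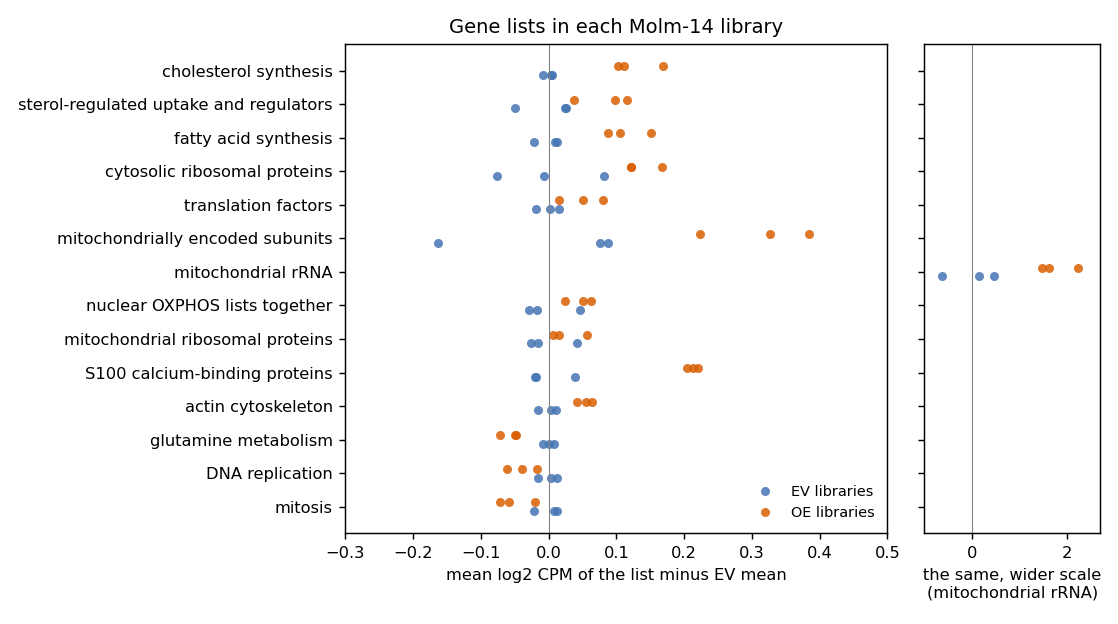
Mean log2 CPM of 14 gene lists in each library, minus the EV mean of the list (horizontal axis), with mitochondrial rRNA on a wider scale at the right; orange points are OE libraries and blue points EV libraries. OE libraries lie above EV for the 3 lipid lists, the ribosomal proteins, the mitochondrially encoded subunits and rRNA and the S100 proteins, and below EV for glutamine metabolism; for DNA replication and mitosis the highest OE library is level with the lowest EV library.

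The lower genes included enzymes of antioxidant defence. NRF2 is a transcription factor that is freed from KEAP1 by oxidants and induces enzymes that make glutathione and reduce quinones. Among 18 genes of this system NQO1 and GCLM fell and GPX4 rose, with a median of -0.026 over the list, where 0.261% of all tested genes were called lower.

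NQO1 (ENSG00000181019, chr16:69706996-69726668, minus strand), the quinone reductase, had 31.3, 28.9 and 34.9 CPM in OE and 41.1, 42.7 and 45.1 CPM in EV. The highest OE library lay below the lowest EV library (log2 fold change -0.44, SE 0.066, edgeR FDR 1.18e-05). GCLM (ENSG00000023909, chr1:93885199-93909456, minus strand), the modifier subunit of the enzyme that starts glutathione synthesis, had 34.5, 35.9 and 37.8 CPM in OE and 41.7, 43.7 and 46.1 CPM in EV (log2 fold change -0.28, SE 0.062, edgeR FDR 0.00615). NQO1 kept its call without any 1 library, and GCLM lost its call without OE 1 or EV 3 (edgeR FDR 0.0781 to 0.112). GCLC, the catalytic partner of GCLM, had 44.4, 47.7 and 42.9 CPM in OE and 43.2, 46.1 and 42.5 CPM in EV and was not called (log2 fold change 0.034, SE 0.059, edgeR FDR 0.901), and TXNRD1 (-0.075, SE 0.034, edgeR FDR 0.379) and NFE2L2, the gene of NRF2 (-0.052, SE 0.046, edgeR FDR 0.757), were not called either. GPX4, the peroxidase that guards membranes against lipid peroxidation, rose by 0.15 (edgeR FDR 0.0361), a call that held in 1 of the 6 fits without 1 library.

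PIR (ENSG00000087842, chrX:15384799-15493564, minus strand), an iron-binding nuclear protein that was not on the list, had the largest fall among called genes with at least 100 counts. It had 5.20, 5.64 and 5.89 CPM in OE and 7.64, 9.24 and 8.62 CPM in EV, without overlap (log2 fold change -0.61, SE 0.14, edgeR FDR 0.00864), and lost its call without OE 1 or EV 2 (edgeR FDR 0.0603 to 0.105).

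The core of the antioxidant response element, TGACNNNGC on either strand, was looked for in the same promoter windows. Of 30 promoters of lower genes 4 held it (13.3%), against 13.6% of 27305 promoters. That of GCLM is shown with the core in capitals, here on the opposite strand and beginning 34 bases before the start.
GCLM, chr1:93909440-93909480, minus strand, GRCh38.p14: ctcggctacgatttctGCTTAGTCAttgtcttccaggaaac

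Most amino acid genes had negative values. Of 23 genes of glutamine metabolism SLC7A11 was lower and 18 were negative in all, with a median of -0.048. Over all tested genes 0.261% were called lower and 50.2% were positive. The average log2 CPM over the 23 genes was 6.53 ± 0.013 in OE and 6.59 ± 0.0081 in EV (SD, n = 3). SLC3A2, the partner chain of SLC7A11 (-0.11, SE 0.038, edgeR FDR 0.16), and ASNS, asparagine synthetase (-0.11, SE 0.13, edgeR FDR 0.834), were not called. PSAT1 (ENSG00000135069, chr9:78297125-78330093, plus strand), an enzyme of serine synthesis, fell, with 173, 161 and 178 CPM in OE and 182, 190.3 and 194 CPM in EV (log2 fold change -0.15, SE 0.036, edgeR FDR 0.0229). PSAT1 lost its call without OE 1, OE 2, EV 2 or EV 3 (edgeR FDR 0.0731 to 0.312). It was the 1 called gene among 14 of serine and one-carbon metabolism, of which 9 were negative. SLC7A11, already counted above, and PSAT1 were the 2 called genes among 21 of the ATF4 stress response. Of these 21 genes 13 were negative, with a median of -0.027, and ATF4 itself stood at 0.0012, SE 0.031, edgeR FDR 0.996.

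The other large falls belonged to genes of varied function. ADGRL2 (ENSG00000117114, chr1:81306147-81993932, plus strand), an adhesion receptor of the latrophilin family, had 85.8, 88.8 and 86.1 CPM in OE and 119, 118 and 119 CPM in EV. The libraries of each group lay within 4 CPM of each other, and this was the most significant fall (log2 fold change -0.45, SE 0.04, edgeR FDR 7.04e-13). MIR99AHG (ENSG00000215386, chr21:15928296-16646364, plus strand), the non-coding host of miR-99a and let-7c, had 18.8, 18.4 and 18.3 CPM in OE and 26.5, 25.4 and 22.8 CPM in EV (log2 fold change -0.43, SE 0.083, edgeR FDR 0.00136). FBN2, the extracellular matrix protein fibrillin-2, had 38.6, 35.7 and 37.8 CPM in OE and 48.4, 47.2 and 43.6 CPM in EV (log2 fold change -0.31, SE 0.061, edgeR FDR 0.00144). These 3 calls held without any 1 library.

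Of the remaining members of the 12 largest falls, SLF1, which acts in repair of DNA crosslinks, fell by 0.28 (edgeR FDR 0.00562), MAP1B, a microtubule-associated protein, by 0.37 (edgeR FDR 0.0364), CA8, a carbonic anhydrase-related protein, by 0.39 (edgeR FDR 0.0441), FSBP by 0.38 (edgeR FDR 0.021) and the pseudogene SEPTIN7P13 by 0.35 (edgeR FDR 0.0489). SLF1 was called in 4 of the 6 fits without 1 library, FSBP in 2, and MAP1B, CA8 and SEPTIN7P13 in 1.

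Cell cycle genes were mostly negative, with few calls. POLE, the leading-strand DNA polymerase, fell (-0.13, SE 0.033, edgeR FDR 0.0177) among 42 genes of DNA replication, of which 10 were positive (median -0.035), and TTK, a kinase of the spindle checkpoint, fell (-0.15, SE 0.041, edgeR FDR 0.0428) among 40 of mitosis, of which 10 were positive (median -0.046). An unadjusted p under 0.05 was reached by 8 lower genes of the first list and by 11 lower genes and 1 higher of the second. Over all 15714 tested genes 1700 reached it, 959 of them higher, and 50.2% were positive. The call of POLE held in 1 and that of TTK in 2 of the 6 fits without 1 library. H2BC7, a replication-dependent histone, rose by 0.20 (edgeR FDR 6.80e-05), alone among 45.

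A few genes of mature myeloid cells were called, all of them higher. Of 13 primary granule proteins 1 was higher and 10 were positive, of 17 genes of monocyte maturation 1 and 10, and of 25 cytokine and growth factor receptors 1 and 17, and 2 genes of monocyte maturation were lower at an unadjusted p under 0.05. Over all tested genes 0.98% were called higher and 50.2% were positive. In bulk RNA a change in the share of mature cells and a change in RNA per cell cannot be told apart. LYZ (ENSG00000090382, chr12:69348381-69354234, plus strand), lysozyme, had 110.5, 114 and 111 CPM in OE and 97.3, 100.1 and 92.9 CPM in EV, with no overlap between the groups (log2 fold change 0.21, SE 0.04, edgeR FDR 0.00113). GSN (ENSG00000148180, chr9:121207794-121332843, plus strand), gelsolin, which severs actin filaments and was on the actin list, had 158, 161 and 156 CPM in OE and 126, 133 and 123 CPM in EV (log2 fold change 0.31, SE 0.037, edgeR FDR 8.35e-09), and overlaps RAB14 on the opposite strand. LYZ and GSN kept their calls without any 1 library.

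CSF3R, the receptor of granulocyte colony-stimulating factor, had 73.6, 76.0 and 74.0 CPM in OE and 64.0, 65.0 and 63.7 CPM in EV (log2 fold change 0.21, SE 0.048, edgeR FDR 0.00722). MS4A7, a membrane protein of monocytes and macrophages, had 50.7, 54.4 and 51.4 CPM in OE and 43.98, 44.2 and 43.5 CPM in EV (log2 fold change 0.25, SE 0.056, edgeR FDR 0.00765). Both lost their calls without OE 2 (edgeR FDR 0.0582 and 0.0895). The calcium-binding proteins of the S100 family were all positive, 8 of 8, with a median of 0.17, beside 50.2% of all tested genes. Called higher were 2 of the 8, and 2 had no overlap, beside 0.98% and 15.6% of all tested genes. DESeq2 called 0 of them. S100A9 had 7.46, 6.69 and 6.94 CPM in OE and 5.03, 4.35 and 4.66 CPM in EV (log2 fold change 0.59, SE 0.15, edgeR FDR 0.0272), S100A4 rose by 0.29 (edgeR FDR 0.0138), and S100A8, the partner of S100A9, was not called (0.38, SE 0.2, edgeR FDR 0.489). The calls of S100A4 and S100A9 held in 2 and 0 of the fits without 1 library.

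Adhesion and cytoskeleton genes added SELPLG, the ligand of P-selectin (0.21, SE 0.052, edgeR FDR 0.0218), LGALS1, galectin-1 (0.18, SE 0.036, edgeR FDR 0.00307), TMSB10, a thymosin that binds actin monomers (0.16, SE 0.039, edgeR FDR 0.0216), and MYL6, a myosin light chain (0.16, SE 0.04, edgeR FDR 0.0244). Of 36 genes of the actin cytoskeleton 29 were positive and 3 higher, and of 26 adhesion genes 20 and 2, where 50.2% of all tested genes were positive and 0.98% called higher. LMO2 (0.19, SE 0.048, edgeR FDR 0.0257) rose among 20 myeloid transcription factors. Of these 15 were positive, and 3 higher and 2 lower genes had an unadjusted edgeR p under 0.05. Over all 15714 tested genes 1700 reached it, 959 of them higher. In the HOXA and MEIS1 program, which sustains this kind of leukemia, PBX3 fell (-0.14, SE 0.038, edgeR FDR 0.0383) and ZFP36L2 rose (0.11, SE 0.03, edgeR FDR 0.0403). Of its 21 tested genes 10 were positive, with a median of -0.0065, and 0.261% of all tested genes were called lower. LGALS1 was called in 5 of the 6 fits without 1 library, SELPLG, MYL6, LMO2 and PBX3 in 2, and TMSB10 and ZFP36L2 in 1.

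Among the largest rises SP9 (ENSG00000217236, chr2:174334954-174338500, plus strand), a zinc finger transcription factor of the developing brain, led the called genes with at least 100 counts. It had 18.7, 17.3 and 17.6 CPM in OE and 10.9, 10.1 and 10.3 CPM in EV, far apart in the groups (log2 fold change 0.77, SE 0.1, edgeR FDR 2.00e-07). SLCO4C1, an organic anion transporter, had 12.5, 13.8 and 11.9 CPM in OE and 9.26, 8.35 and 7.76 CPM in EV (log2 fold change 0.60, SE 0.11, edgeR FDR 0.00113). Both kept their calls without any 1 library.

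GRIN2D, a glutamate receptor subunit, rose by 0.57 (edgeR FDR 0.038), IER5L by 0.49 (edgeR FDR 0.0332), the non-coding LINC03040 by 0.47 (edgeR FDR 0.00963), TP53INP2, which acts in autophagy, by 0.42 (edgeR FDR 0.0295) and MAGEF1 by 0.41 (edgeR FDR 0.0216). LINC03040 was called in 3 of the 6 fits without 1 library, TP53INP2 in 2, IER5L and MAGEF1 in 1 and GRIN2D in 0.

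Single members of other lists were called as well, where 0.98% of all tested genes were called higher and 0.261% lower. JUND, an AP-1 transcription factor, rose (0.21, SE 0.033, edgeR FDR 3.70e-05) among 23 immediate early genes, MXI1, a MYC antagonist, (0.21, SE 0.045, edgeR FDR 0.00615) among 18 genes of the hypoxia response, HSPB1, a small heat shock protein, (0.16, SE 0.036, edgeR FDR 0.00643) among 18 chaperones, CCL5, a chemokine, (0.26, SE 0.069, edgeR FDR 0.0343) among 17 inflammatory genes, and TOP1MT, the mitochondrial topoisomerase, (0.15, SE 0.041, edgeR FDR 0.0489) among 21 genes of mitochondrial DNA upkeep. DNAJB11 (0.24, SE 0.065, edgeR FDR 0.0449) and CREB3L2 (0.15, SE 0.041, edgeR FDR 0.0441), both of the endoplasmic reticulum, rose among 19 genes, and the nuclear non-coding RNA NEAT1 fell (-0.14, SE 0.037, edgeR FDR 0.0383). JUND was called in 6 of the 6 fits without 1 library, MXI1 and HSPB1 in 5, NEAT1 in 2, CCL5, TOP1MT and CREB3L2 in 1 and DNAJB11 in 0. The lists as a whole were mixed. Positive were 14 of 23 immediate early genes, 9 of 18 hypoxia genes, 4 of 18 chaperones and 9 of 17 inflammatory genes. So were 9 of 21 genes of mitochondrial DNA upkeep and 10 of 19 of the endoplasmic reticulum, beside 50.2% of all tested genes.

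Several other lists held no call. Over all 15714 tested genes 1700 had an unadjusted edgeR p under 0.05, 959 of them higher. None of 40 interferon-stimulated genes passed in edgeR, DESeq2 or voom (median 0.064, with 6 higher at an unadjusted p under 0.05), nor did any of 17 genes of HLA class I presentation (3 higher at that p), 9 of class II (1 higher), 24 of MAPK and STAT5 feedback (4 higher and 1 lower), 21 p53 targets (1 higher), 15 of the BCL2 family (0) or 6 glucose-sensing arrestins (3 higher). The interferon list ran from IFIT1 (-0.49, SE 0.38, edgeR FDR 0.7) to DHX58 (0.48, SE 0.35, edgeR FDR 0.69), and the lowest member of class II was HLA-DRB1 (-0.57, SE 0.33, edgeR FDR 0.557).

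The same hairpin vector was tested in MV4-11, another FLT3-ITD line, and the difference between the lines was fitted as an interaction over the 12 libraries. It was called for 8 of 17542 genes (0.0456%), for 4 without any 1 of Molm-14 OE 1, OE 2, OE 3, EV 2 or EV 3 and for 5 without Molm-14 EV 1, MV4-11 OE 2 or MV4-11 EV 1. None of them was among the 195, and 42 of the 195 had an unadjusted p under 0.05 for the difference. Of the 195 genes 97 had the same sign in MV4-11, and 2 were called there, MIR133A1HG and GSN. The 5 genes with the lowest FDR for the difference, C12orf75, CPVL, MPEG1, ADAMTS9 and WASF1, were not called in Molm-14, where their log2 fold changes were 0.037, 0.056, 0.19, -0.0027 and 0.10. SCD stood at 0.30 in Molm-14 and -0.08 in MV4-11, NQO1 at -0.44 and 0.076, SLC7A11 at -0.31 and 0.23 and GSN at 0.31 and 0.41.

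The study turned to miR-1 because deletion of MPC1, which encodes 1 chain of the mitochondrial pyruvate carrier, raised this microRNA. Its Molm-14 knockout libraries (3 KO made with CRISPR/Cas9 and 3 EV of their own) share no library with the overexpression comparison and were counted in another table. Of 12238 genes tested there 351 were called (2.87%), and 178, 200 and 206 without KO 2, KO 1 or EV 3. Of the 195 genes 184 could be tested in both, and 16 were called in both, which is 8.70% of these 184 and 4.73% of the 338 genes called in the knockout that could be tested in both. The direction was the same for 12 of the 16, with 8 higher and 4 lower in both, and opposite for 4. Over all 184 genes 111 had the same sign.

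The shared rises included myeloid and S100 genes, but the lists of such genes did not all go the same way. In KO the median log2 fold change was 0.40 for monocyte maturation, 0.19 for S100 proteins and 0.15 for cytokine and growth factor receptors. It was -0.41 for primary granule proteins. In OE these 4 medians were 0.12, 0.17, 0.036 and 0.062. LYZ was at 604 ± 2.00 CPM in KO and 310.3 ± 31.1 CPM in its EV, a change of 0.96 in KO (SE 0.076, edgeR FDR 1.39e-06) beside 0.21 in OE. S100A4 changed by 0.77 in KO (SE 0.099, edgeR FDR 1.68e-04) and by 0.29 in OE. S100A9 had 22.2 ± 1.28 CPM in KO and 10.1 ± 2.25 CPM in its EV, 1.15 in KO (SE 0.16, edgeR FDR 3.36e-04), beside 0.59. CES1, a carboxylesterase of monocytes and liver, had 135, 132 and 139.7 CPM in OE and 119.8, 114 and 116 CPM in EV in the overexpression libraries (log2 fold change 0.22, SE 0.037, edgeR FDR 9.50e-05) and changed by 0.45 in KO (SE 0.077, edgeR FDR 0.0024). MS4A7, LMO2, GAS7 and CLSTN2 completed the shared rises, the last, a calsyntenin, with under 5 CPM in every library.

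The shared falls were ADGRL2, SLC7A11, FBN2 and MAP1B. ADGRL2 was at 202 ± 8.71 CPM in KO and 279.8 ± 11.0 CPM in its EV, a change of -0.47 in KO (SE 0.067, edgeR FDR 3.87e-04), close in size to that in OE. SLC7A11 changed by -0.39 in KO (SE 0.081, edgeR FDR 0.0101), FBN2 by -1.33 in KO (SE 0.12, edgeR FDR 3.67e-06) and MAP1B by -2.79 in KO (SE 0.37, edgeR FDR 2.81e-04). TSPOAP1 (0.15, SE 0.032, edgeR FDR 0.00562), CYP4V2 (0.20, SE 0.05, edgeR FDR 0.0246), RAB6B (0.28, SE 0.061, edgeR FDR 0.00621) and CFD (0.13, SE 0.036, edgeR FDR 0.042), the complement factor D, were higher in OE and lower in KO, where they changed by -0.45, -0.43, -0.78 and -0.45. CFD lies outside the rule by which genes were named and was added after its values were seen. None of the 13 called lipid genes and none of the 24 called ribosomal proteins was called in the knockout. There 2.87% of all tested genes were called, too low a share for lists of this size to be told apart from other genes.

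**Figure D5:**
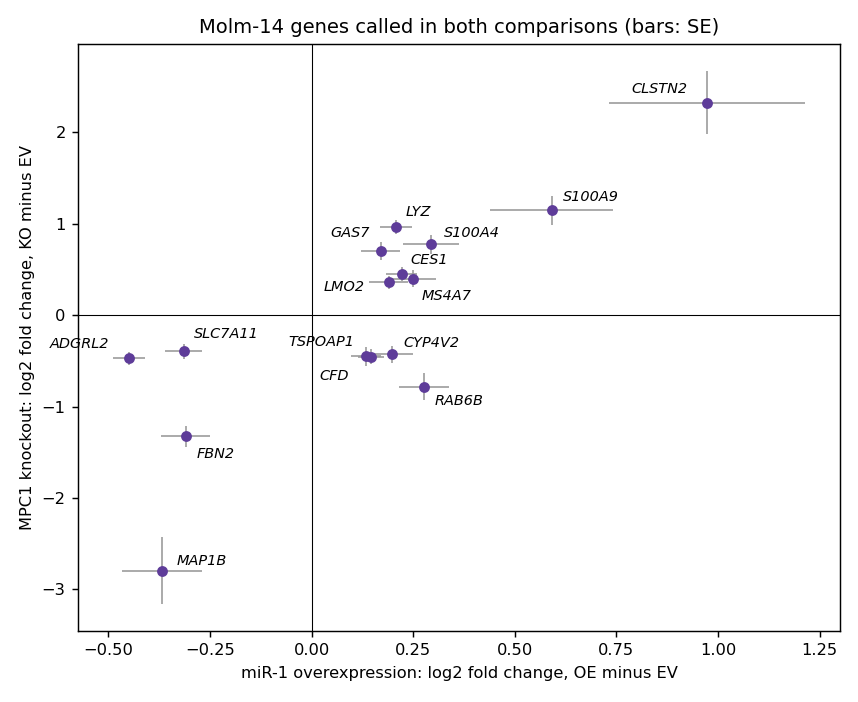
The 16 genes called in both comparisons of Molm-14, by log2 fold change with miR-1 overexpression (horizontal axis) and with MPC1 knockout (vertical axis); bars are standard errors. ADGRL2, SLC7A11, FBN2 and MAP1B lie in the lower left, 8 genes in the upper right and TSPOAP1, CYP4V2, RAB6B and CFD in the lower right.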

How the data were processed

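Per the labels and the methods, RNA was extracted with DNase treatment, made into stranded libraries of total RNA after depletion of ribosomal RNA, and sequenced. The authors removed optical duplicates, trimmed reads with cutadapt 1.16, aligned them to GRCh38 with STAR 2.7.6a and assigned them to genes with featureCounts 1.6.3. The deposited values were raw whole-number counts per Ensembl gene. The strand setting of the counting is not given in the sources used here, so overlapping genes on opposite strands are uncertain. Total counts were 15543301 to 20939985 in the 6 libraries, and floors of 3 counts cover counting error only. Replicate pairs differed by more than sampling noise (chi-square per degree of freedom 2.09 to 3.05).

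Genes were filtered with filterByExpr, scaled with TMM factors and tested with the robust quasi-likelihood test of edgeR 4.0.16 (R 4.3.3), with a mean per group, in the 6 Molm-14 libraries alone and in the 12 libraries of the series with the interaction of line and vector. Genes were called at a Benjamini-Hochberg FDR under 5%. The 6 Molm-14 libraries of the MPC1 series were fitted in the same way. Alternatives used DESeq2 1.42.0, limma voom 3.58.1, other size factors, no filter, no robust estimation, loess offsets for GC content and length, and each library left out. The fits were tested on simulated counts. Lists were described by counts and medians, without a test.

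Named genes are the miR-1 loci, the 12 largest called rises and falls with at least 100 counts and no overlap, called members of lists (up to 4 in each direction, else the extremes), the 5 largest falls and all calls among genes with an 8mer, calls of the 12-library fit and 5 of the interaction, and up to 10 genes called in both Molm-14 comparisons. Members and lists were chosen with earlier results of these data known. Gene models came from GENCODE 44, which held 60419 of 60675 gene IDs, and microRNA and promoter sequences from RefSeq. Values of a few list members are not reported here.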

Additional observations from a re-analysis of the deposited data

Results flagged for a closer look

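The effect of the vector differed between the lines for 8 genes by the edgeR interaction test over 12 libraries (FDR under 5%), and each difference came with a change in MV4-11 and none called in Molm-14. Given as the log2 fold change in Molm-14 minus that in MV4-11, the differences were 2.73 for C12orf75, 1.41 for CPVL, 1.28 for MPEG1, -4.21 for ADAMTS9, 1.28 for WASF1, 2.55 for KIAA0040, -0.85 for CNKSR2 and 2.10 for SIX2. C12orf75 had 4.31 ± 0.103 CPM in Molm-14 OE and 4.19 ± 0.938 CPM in EV, against 1.42 ± 0.272 and 9.21 ± 0.223 CPM in MV4-11 (SD, n = 3). ADAMTS9 stood at 56.8 ± 2.28 and 56.9 ± 3.40 CPM in Molm-14 and at 0.457 ± 0.147 and 0.0161 ± 0.0278 CPM in MV4-11, where it is near the floor.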

How the results depend on the processing

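In place of the 195 genes called in the 6 libraries, DESeq2 called 100, GC and length offsets plus a replicate block gave 99, and leaving out 1 Molm-14 library gave 77 to 207. The other alternatives, apart from the replicate block alone, stayed within 1.5 times. In the 12-library fit the count of 1 became 5 with DESeq2 and 7 without a filter, stayed at 1 without any 1 Molm-14 library and was 1 to 3 without 1 MV4-11 library, an alternative added after seeing the data. For the interaction the count of 8 became 13 with DESeq2, 33 without a filter and 4 to 9 without 1 library. In the MPC1 comparison the count of 351 became 178 to 410 without 1 library. Same-numbered OE and EV libraries deviated with correlations of -0.064, -0.050 and -0.041, and none correlated best with its own number. Deviations were taken from the mean of each group of 3, which ties these correlations to each other. They cannot tell whether libraries were prepared in numbered pairs, which the sources do not state. The replicate block gave 90 genes in the 6 libraries, 2 in the 12, 2 for the interaction and 355 in the MPC1 comparison. Of 79 named genes that were called, 23 kept their call under every alternative that gave a value (DESeq2 gave no adjusted p for MIR133A1HG). Over 1183 values of these genes under an alternative, none changed sign and 373 calls were lost. The cause of these losses was not tested. With the longest 3′ UTR of each gene in place of the canonical one the median of the 8mer genes was -0.0076.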

Other observations

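Called genes were uneven in base composition and place. The genes called higher had a median GC content of 53.8% and those called lower 41.9%, with 48.0% over all tested genes, and median exon lengths of 4024, 8118 and 4478 bases. Chromosome 19 held 26 higher genes and 0 lower among 1098 tested (2.37%), beside 1.24% over all genes. With offsets for GC content and length 130 of the 195 genes were still called.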
